A study of Mus musculus with 165 samples.

Results

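Mbp, Mobp, Cnp, Mal, Cldn11, Mag, Mog and Opalin encode proteins of the myelin sheath of the central nervous system. These 8 genes were followed in the brain of ageing mice. They were taken from a brain count table of 55471 Ensembl gene identifiers by matching the identifiers to the 8 symbols. All 8 were found, and all 8 were among the 18711 genes that passed a filter on low counts and were tested. The table held 82 bulk libraries of polyadenylated RNA, each from the brain of 1 male mouse. All mice were C57BL/6J/Ukj, a line of inbred laboratory mice. There were 15 libraries at 3 months, 16 at 9 months, 16 at 15 months, 17 at 24 months and 18 at 28 months of age. No group carried a treatment or an engineered allele per the labels, and the mice had been kept only to age. Libraries were made in 3 preparations, called preps here, and each prep held 4 to 7 libraries of every age. The title of the study names cognitive decline in ageing, inflammation and tissue maintenance, and age is the contrast addressed here.

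Myelin is a spiral of oligodendrocyte membrane wrapped around an axon. It speeds conduction and is rich in cholesterol and galactolipids. In compact myelin the cytoplasmic faces of the membrane are pressed together, while cytoplasm remains in channels and in the loops beside the node of Ranvier. Oligodendrocytes arise from precursors throughout adult life, and mature oligodendrocytes use the myelin genes together at very high levels. In bulk brain RNA a lower level of such a gene can come from fewer oligodendrocytes or from less RNA per cell, and these cannot be told apart. The Mbp count sums all transcripts of the gene, including those used outside myelin.

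The genes lie on 8 different chromosomes. In the GENCODE M21 annotation of the mouse build GRCm38, the build that the submitters' processing notes also name, Mog spans chr17:37010743-37023398 and Mag chr7:30899176-30914873, both on the reverse strand. Mobp spans chr9:120149707-120181484 and Cnp chr11:100574904-100591729, both on the forward strand. Cldn11 spans chr3:31149920-31164324 on the forward strand, Opalin chr19:41061710-41077113 on the reverse strand and Mal chr2:127633226-127656695 on the reverse strand. All 8 are protein-coding genes with between 3 and 13 separate exon blocks. Exons of Cnp overlapped those of Dnajc7 on the opposite strand over 154 bases, which is 4.23% of the exon length of Cnp. Mobp shared 79 exon bases, 1.15%, with a noncoding transcript on its own strand. No other member shared exon bases with another annotated gene.

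The promoter sequences of 4 members are shown because 2 transcription factor motifs of oligodendrocytes are spelled out in them. The sequences are the 250 bases before the RefSeq transcription start in GRCm38.p6, 5′ to 3′ along the gene. Capitals in Mag, Cnp and Mog mark the motif CTGGNAC of Myrf, the factor that switches on myelin genes in maturing oligodendrocytes, on either strand. Capitals in Mobp mark the Sox motif ACAANG, on either strand, because its sequence holds 6 copies and no CTGGNAC.
Mag, chr7:30914923-30915172, - strand: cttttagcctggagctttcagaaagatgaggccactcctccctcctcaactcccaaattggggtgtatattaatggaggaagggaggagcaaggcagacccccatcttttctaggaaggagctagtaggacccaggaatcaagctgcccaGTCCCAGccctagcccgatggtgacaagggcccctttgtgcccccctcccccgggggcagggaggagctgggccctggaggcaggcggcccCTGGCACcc
Cnp, chr11:100574689-100574938, + strand: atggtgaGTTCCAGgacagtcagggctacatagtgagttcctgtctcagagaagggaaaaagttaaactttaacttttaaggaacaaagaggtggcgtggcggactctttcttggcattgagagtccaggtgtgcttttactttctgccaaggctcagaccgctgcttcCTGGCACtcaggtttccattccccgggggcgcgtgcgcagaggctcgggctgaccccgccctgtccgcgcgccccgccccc
Mog, chr17:37023399-37023648, - strand: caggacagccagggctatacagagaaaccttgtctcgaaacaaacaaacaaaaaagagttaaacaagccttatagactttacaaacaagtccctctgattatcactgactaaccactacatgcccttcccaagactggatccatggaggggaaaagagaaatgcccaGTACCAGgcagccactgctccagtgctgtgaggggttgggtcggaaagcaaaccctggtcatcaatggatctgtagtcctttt
Mobp, chr9:120149492-120149741, + strand: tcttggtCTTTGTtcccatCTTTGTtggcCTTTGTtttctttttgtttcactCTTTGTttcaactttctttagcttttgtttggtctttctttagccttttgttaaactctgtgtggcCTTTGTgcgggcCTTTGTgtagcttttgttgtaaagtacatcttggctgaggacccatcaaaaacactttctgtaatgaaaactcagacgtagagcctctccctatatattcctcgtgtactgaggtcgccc
The window searched ran from 250 bases before to 50 bases after the start, and 7 members had such a window in the RefSeq table used. CTGGNAC was found in 4 of the 7, with 2 copies each in Mag and Cnp and 1 copy each in Mog and Opalin. Of all 32851 promoter windows of this length in the table, 19.3% held it. The copies nearest to the start lay 9 bases before it in Mag, 36 after it in Opalin, 81 before it in Cnp and 83 before it in Mog. ACAANG was found in 5 of the 7 windows and in 41.2% of all windows. The E-box spellings CAGCTG and CAGATG were each found in 1 of the 7, both in Opalin, against 16.3% and 17.2% of all windows. The windows of Cldn11 and Mal held none of the 4 motifs. The letters AC that end CTGGNAC can also begin ACAANG, but no 2 matches in the printed sequences overlapped. These matches describe the sequence and were not tied to any measurement of binding. Whether they go with how the members vary between brains was not tested.

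Levels are given as CPM, the read count of a gene scaled to the size of its library, with TMM scaling of the library sizes. Brain libraries held 11.5 M to 73.4 M read counts, with a median of 37.6 M, so even Opalin, the lowest member, was counted in every library with at least 8.90 CPM. To compare the genes with each other, CPM was divided by the total length of all annotated exons of the gene in kilobases. On this scale the medians over 82 libraries were 247 CPM per kb for Mbp, 89.9 for Mobp, 65.2 for Cnp, 57.8 for Mal, 44.8 for Cldn11, 30.8 for Mag, 21.2 for Mog and 5.70 for Opalin. The order was nearly fixed within libraries. Mbp was above Mobp, Mal above Cldn11, Cldn11 above Mag, and Mog above Opalin in 82 of 82 libraries. Mobp was above Cnp in 79 libraries, Cnp above Mal in 74 and Mag above Mog in 80. Cnp and Mal were the closest neighbours, with a median ratio of 1.16. The exon length counts exons of every annotated transcript, so a gene with many little-used exons, such as Mbp with 16 annotated transcripts, is understated.

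A few libraries stood apart. In the 3-month library of replicate 9, the 8 genes summed to 8202 CPM, or 0.820% of the library, against 4121 CPM in the next highest library of that age. In the 28-month library of replicate 8 they summed to 7682 CPM, against 5429 CPM in the next highest. The lowest sum of all, 1716 CPM, was in the 3-month library of replicate 7. The 28-month library of replicate 15 was least like the other brain libraries, with a median Spearman correlation of 0.866 over tested genes, and it was also the shallowest at 11.5 M read counts. It held the highest Mog, Cnp and Opalin of its age but Mbp at 2403 CPM, close to the median of 2433 CPM at 28 months. Several results are given with and without these libraries.

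**Figure D1:**
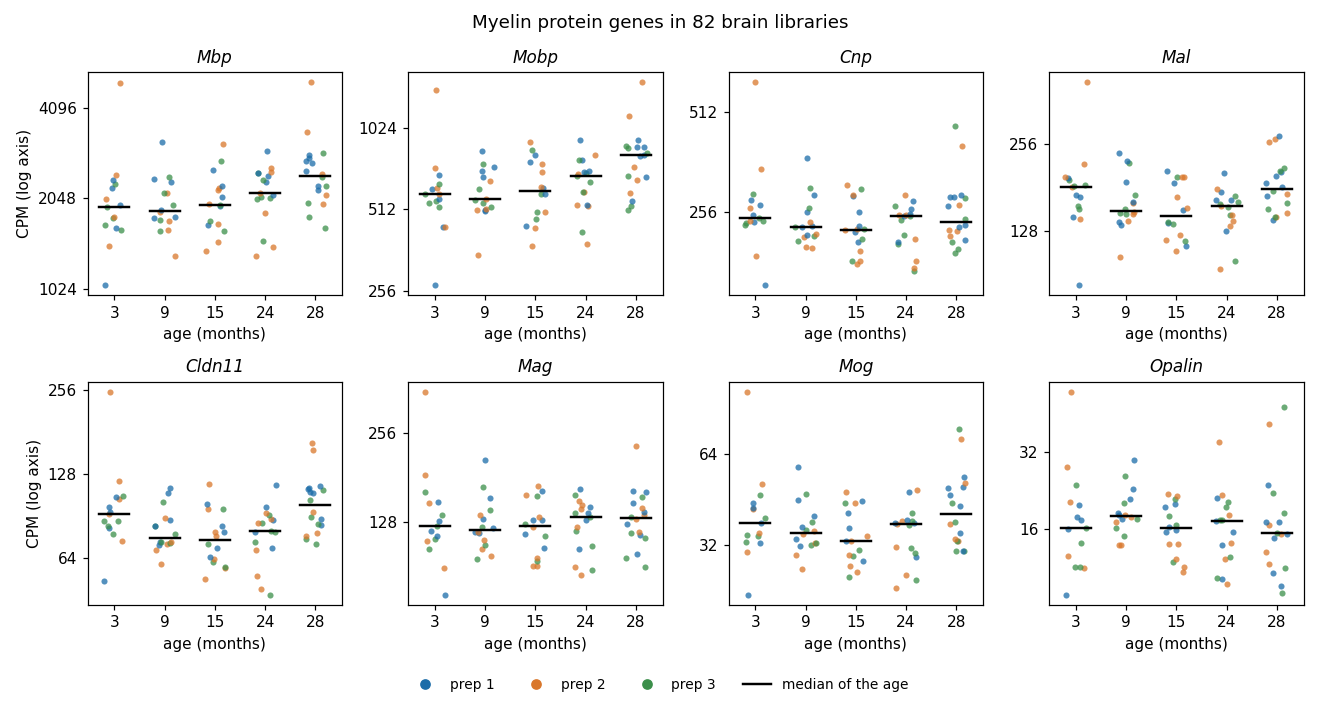
CPM of each gene (log axis) in each of the 82 brain libraries by age in months, with 1 point per library coloured by prep and a bar at the median of the age. All ages overlap for every gene, and 1 library at 3 months (Mbp 4973 CPM) and 1 at 28 months (Mbp 4993 CPM) lie far above the rest of their age for Mbp and Mobp.

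Mobp, a small basic protein of compact myelin, was the only member with an adjusted p under 0.05 at 28 against 3 months. At 3 months its level ran from 269 CPM through a median of 583 CPM to 1412 CPM. At 9 months the lowest, median and highest were 346, 557 and 841 CPM, and at 15 months 375, 597 and 909 CPM. At 24 months they were 381, 682 and 926 CPM, and at 28 months 507, 809 and 1512 CPM. The ages overlapped, but 15 of 18 libraries at 28 months lay above the 3-month median, and 11 of 18 lay above the highest but 1 of the 3-month libraries. The log2 fold change at 28 against 3 months was 0.39 ± 0.14 (SE), a 1.31-fold rise, with an adjusted p of 0.0236 (edgeR quasi-likelihood test, Benjamini-Hochberg adjustment over all tested genes, as for all adjusted p-values of single genes here). The call rested on few libraries. Without the 28-month replicate 8 the log2 fold change was 0.31 with an adjusted p of 0.0691, and without the low 3-month replicate 7 it was 0.33 with an adjusted p of 0.0548. Without the high 3-month replicate 9 it was 0.53 with an adjusted p of 0.00088. Within preps fitted alone it was 0.62 in prep 1, where it passed the threshold, 0.30 in prep 2 (adjusted p of 0.777) and 0.33 in prep 3 (0.197). The 28-month replicate 8 also held the highest summed astrocyte markers of its age, 7167 CPM, and 705 CPM of microglia markers against a median of 441 CPM at that age, and the part of these in the result was not tested. Against 3 months, the values at 9, 15 and 24 months were -0.04, 0.01 and 0.09.

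Mbp, which holds the cytoplasmic faces of compact myelin together, was the most abundant member. It lies on the forward strand of chromosome 18. Its lowest, median and highest levels were 1055, 1915 and 4973 CPM at 3 months and 1318, 1855 and 3150 CPM at 9 months. At 15 months they were 1365, 1953 and 3099 CPM, and at 24 months 1319, 2141 and 2947 CPM. At 28 months they were 1631, 2433 and 4993 CPM, with 16 of 18 libraries above the 3-month median. The groups overlapped. The log2 fold change at 28 against 3 months was 0.29 ± 0.13 (SE), with a 95% interval of 0.04 to 0.55 and an adjusted p of 0.0754, so Mbp did not pass the threshold. Without the 3-month replicate 9 it was 0.44 with an adjusted p of 0.00256, and without that library and the 28-month replicate 8 together it was 0.36 with an adjusted p of 0.00912. Without the 28-month replicate 8 alone it was 0.21 with an adjusted p of 0.201, and without the low 28-month replicate 12 it was 0.33 with an adjusted p of 0.0491.

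Cldn11 forms the tight junction strands between the layers of myelin, and Mal is a small proteolipid of membranes rich in glycolipids. Cldn11 had its lower medians at the middle ages. Its lowest, median and highest levels were 53.0, 92.0 and 252 CPM at 3 months, 61.0, 75.6 and 114 CPM at 9 months, and 53.7, 74.3 and 118 CPM at 15 months. They were 47.4, 80.3 and 117 CPM at 24 months and 71.7, 98.7 and 165 CPM at 28 months. Only 3 of 16 libraries at 9 months, 4 of 16 at 15 months and 3 of 17 at 24 months exceeded the 3-month median, against 10 of 18 at 28 months. Against 3 months the log2 fold change of Cldn11 was -0.30 ± 0.13 (SE) at 9 months, -0.40 ± 0.13 at 15 months and -0.34 ± 0.13 at 24 months, with adjusted p-values of 0.520, 0.148 and 0.0672. None of these passed the threshold. At 28 against 3 months it was 0.02 ± 0.12, with a 95% interval of -0.23 to 0.26. When the 5 ages were tested together, Cldn11 differed with an adjusted p of 0.00724. The count at 24 months turned on few libraries: Cldn11 was called without the 24-month replicate 12 or the 28-month replicate 15, and both Cldn11 and Mal were called without the low 3-month replicate 7. Mal had a like order of medians, 181, 150, 144, 156 and 179 CPM from the youngest to the oldest age. Of the 17 libraries at 24 months, 1 exceeded the 3-month median of Mal. Its log2 fold change against 3 months was -0.29 ± 0.12 (SE) at 24 months, with an adjusted p of 0.113, and 0.02 ± 0.12 at 28 months.

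Cnp, a cyclic nucleotide phosphodiesterase of the cytoplasm-filled parts of myelin, had medians of 245 CPM at 3 months and 238 CPM at 28 months, over a range of 154 to 633 CPM in all libraries. Mag, an adhesion receptor that faces the axon, had medians of 123 CPM and 132 CPM at these ages, over a range of 72.1 to 355 CPM. Mog, an immunoglobulin-domain protein of the outermost layer, had medians of 37.8 CPM and 40.6 CPM, over a range of 21.9 to 103 CPM. Opalin, a transmembrane glycoprotein of oligodendrocytes, had medians of 16.1 CPM and 15.4 CPM, over a range of 8.90 to 55.0 CPM. For each of these genes every age overlapped every other. At 28 against 3 months the log2 fold change was -0.06 for Cnp, -0.06 for Mag, 0.06 for Mog and -0.04 for Opalin, with adjusted p-values of 0.729, 0.743, 0.743 and 0.877. The 95% intervals reached from -0.28 to 0.16 for Cnp, from -0.31 to 0.19 for Mag, from -0.19 to 0.32 for Mog and from -0.40 to 0.31 for Opalin.

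Counted over the 8 genes, few calls were made. At 28 against 3 months 1 of the 8 passed the threshold, while 28.3% of all tested genes did, and the median log2 fold change was 0.02 beside 0.01 over all tested genes. At 9 against 3 months 0 of the 8 passed, where the background was 0.315% of tested genes, and 1 had an unadjusted p under 0.05. At 15 against 3 months 0 passed (background 0.871%) and 4 had an unadjusted p under 0.05. At 24 against 3 months 0 passed (background 10.1%) and 3 had an unadjusted p under 0.05. DESeq2 called 0, 0 and 1 of the 8 in these 3 comparisons and limma voom 0, 0 and 0. The gene DESeq2 called at 24 months was Cldn11. The median log2 fold changes of the 8 were -0.15, -0.22 and -0.20, with 7, 7 and 6 of the 8 below 0. These comparisons share the 3-month libraries, so their likeness is no separate evidence. Between neighbouring later ages, 0 of the 8 passed in edgeR at 15 against 9 months (background 0%), at 24 against 15 months (0.732%) and at 28 against 24 months (1.09%). The numbers with an unadjusted p under 0.05 were 0, 0 and 4, DESeq2 called 0 in each, and limma voom called 0, 0 and 1. At 28 against 24 months all 8 log2 fold changes were positive, from 0.08 for Mag to 0.36 for Cldn11, with a median of 0.27 beside 0.01 over all tested genes. The lowest adjusted p of the 8 there was 0.128 (edgeR). The members varied together between brains (median r of 0.888, given below), so the 8 signs are not separate observations. The 28-month replicate 8, with all 8 genes above the median of its age, was among the libraries. With the 5 ages tested together, 2 of the 8 passed, Cldn11 and Mobp (adjusted p of 0.0447), where the background was 20.6%. Mobp lost this call in 32 of the 82 fits that left out 1 library, while Cldn11 remained called in all 32.

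**Figure D2:**
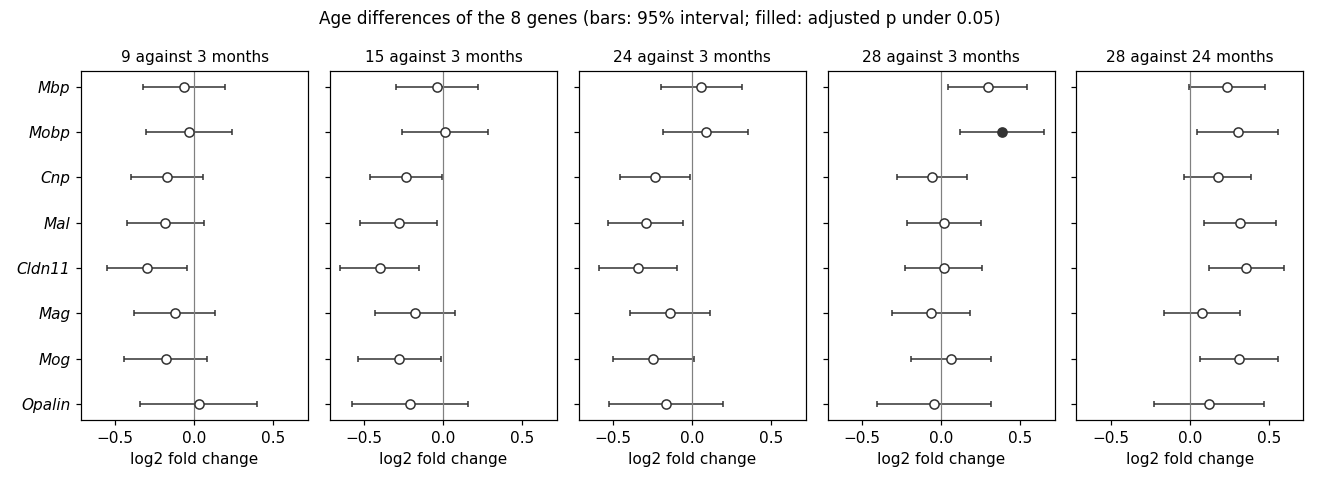
Log2 fold change of each gene in 5 comparisons of ages, with 95% intervals from the standard error and filled points for an adjusted p under 0.05. The single filled point is Mobp at 28 against 3 months (0.39), and all 8 points lie above 0 at 28 against 24 months. The 8 genes varied together between brains, so their shared sign there is not 8 separate observations.

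From brain to brain within an age the genes varied together. After the means of age and prep were removed from log2 CPM, Pearson's r over 82 libraries ran from 0.62 to 0.96 in the 28 pairs of members, with a median of 0.888. Spearman's rho ran from 0.58 to 0.95. Each of the 28 pairs had an adjusted p of 1e-05 by both measures in a two-sided permutation test with 100000 resamples, the smallest value they can give. Without the 2 libraries farthest from the median, r ran from 0.56 to 0.95. Within prep 1, prep 2 and prep 3 alone the median r was 0.90, 0.93 and 0.81. All 8 genes lay above the median of their age in 23 of the 82 libraries, and all 8 lay below it in 22. Opalin followed the others least, with a median r of 0.72 against 0.86 to 0.92 for the other members. The spread within an age was wide and rested in part on single libraries. At 3 months the coefficient of variation of Mbp was 42.7% with all 15 libraries and 20.8% without replicate 9.

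**Figure D3:**
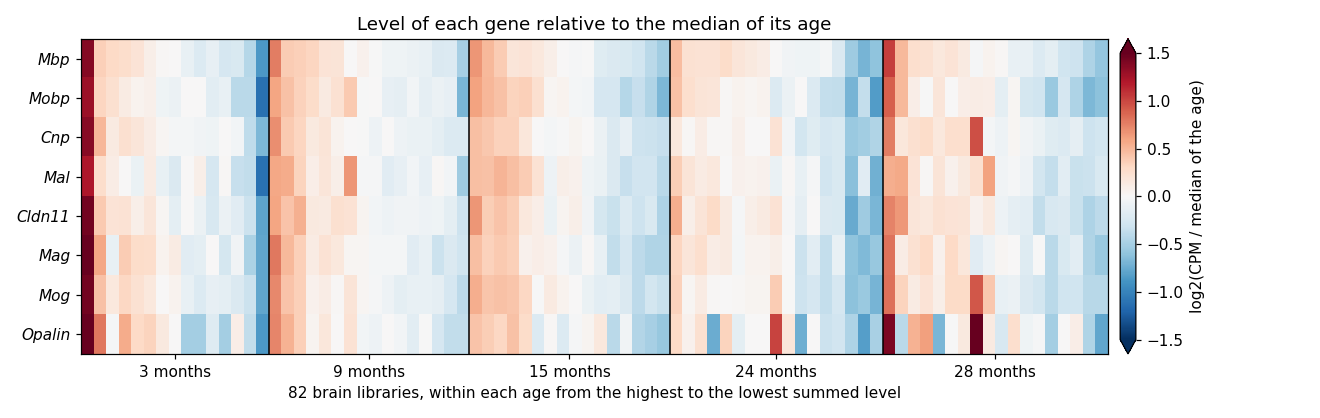
Level of each gene in each of the 82 brain libraries relative to the median of its age, on a log2 colour scale cut off at -1.5 and 1.5, with libraries sorted within each age by the summed level of the 8 genes. In 23 libraries all 8 genes lie above the median of their age, in 22 all 8 lie below it, and Opalin has the lowest median correlation with the others (0.72).

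Markers of other cell types and brain regions were examined beside this shared variation. This comparison was added after the levels had been seen. Over 11 marker lists, the summed CPM of 2 lists was related to the mean standardised level of the 8 genes within ages and preps. The 10 neuron markers gave r = -0.39 and rho = -0.34 over 82 libraries (adjusted permutation p of 0.019 and 0.0112), and r = -0.39 without the 2 farthest libraries. Within the 3 preps r was -0.56, -0.41 and -0.42. The 7 microglia markers gave r = 0.42 and rho = 0.34 (adjusted permutation p of 0.00363 and 0.0112), 0.31 without the 2 farthest libraries, and 0.26, 0.41 and 0.61 within preps. The other 9 lists, astrocyte, endothelium, choroid plexus, Schwann cell, red blood cell, cerebellum, cortex and hippocampus, striatum and clock output, had adjusted permutation p-values of 0.595 or more for r and 0.138 or more for rho. Among 3-month libraries, replicate 9 with the highest myelin sum had the lowest neuron marker sum, 6252 CPM, and replicate 7 with the lowest myelin sum had the highest, 8024 CPM. Replicate 9 also had the highest striatum marker sum of its age, 213 CPM against a median of 148 CPM. At 28 months the library with the highest myelin sum, replicate 8, had 6338 CPM of neuron markers, while the lowest neuron marker sum of that age was 4075 CPM. Of the nerve root markers, Pmp2 was at 0 counts in 69 of 82 libraries, while Drp2, which other brain cells also express, made up most of the summed level of that list (65.2 to 122 CPM). Of 16 hindbrain and spinal markers, none reached the tested set, and the Hox genes among them stayed at or below 0.163 CPM in every library. The highest sum of these 16 was 4.70 CPM, in a library of 24 months, against a median of 0.261 CPM at that age, and Slc6a5 alone reached 4.61 CPM. Cerebellum markers summed to as much as 784 CPM at 24 months and 495 CPM at 28 months, against medians of 163 and 167 CPM, so single libraries stood apart in these regional markers. Single libraries stood apart at 3 months too, with choroid plexus markers summing to as much as 6508 CPM against a median of 188 CPM and pituitary markers to 656 CPM against 1.18 CPM. The highest choroid plexus sums at 15, 24 and 28 months were 4764, 4455 and 5375 CPM. The pituitary, hepatocyte and hindbrain lists were not among the 11 lists related to the 8 genes above. The part of these markers in the levels of the 8 genes was not tested. At 28 against 3 months, where 16.3% of tested genes were called higher and 12% lower, 6 of 7 microglia markers were called higher and 0 lower. Of 8 astrocyte markers 4 were called higher and 2 lower, of 10 neuron markers 0 higher and 2 lower, of 5 red blood cell markers 3 higher and 0 lower, and of 6 endothelium markers 2 higher and 2 lower. Of 7 cortex and hippocampus markers 0 were called higher and 2 lower, of 6 cerebellum markers 2 higher and 0 lower, and of 9 clock output genes 4 higher and 0 lower. Both tested pituitary markers, Gh and Pomc, were called lower, and 2 of 3 tested hepatocyte markers, Apoa1 and Cyp2e1, were called higher. Of 6 choroid plexus markers 0 were called, of 6 striatum markers 0 higher and 1 lower, and of 4 tested Schwann cell and nerve root markers 1 higher and 0 lower.

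Genes most like the members were named by their correlation with the mean standardised level of the 8 genes over the same 82 libraries. This is a description, since all values share the libraries and their depth. Of 18711 tested genes, 57 had r above 0.8 and 26 above 0.9, of which 7 were members. The mean holds each member itself, so the r of the members is high in part by construction. The 10 other genes with the highest r were Bcas1 (0.96), Galnt6, Fa2h, Tmem63a, Litaf, 1700047M11Rik, Prr18, Ttyh2, Plekhb1 and Aspa (0.94). Fa2h makes the hydroxylated fatty acids of myelin galactolipids, and Aspa releases acetate from N-acetylaspartate. Of these 10, 3 were called at 28 against 3 months, all higher, which is near the 28.3% of all tested genes called. On the log2 scale Galnt6 was 0.48 higher (adjusted p of 0.00675), Aspa 0.35 higher (0.0366) and Plekhb1 0.30 higher (0.0123). The call of Aspa was lost in 8 of the 82 fits that left out 1 library and in 4 of 14 other settings. Bcas1, Galnt6 and Tmem63a share exon bases with antisense transcripts and Litaf with Snn on the opposite strand, and whether the counting used strand is not given in the sources used here.

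Since the members varied together between brains, their ratios within a library were compared as well. The log2 ratio of CPM of 2 members was compared between each older age and 3 months in all 28 pairs, with a two-sided permutation of age within prep (100000 resamples) adjusted over 112 tests. This comparison was added after the levels had been seen. Of the 28 pairs, 14 passed at 9 months, 15 at 15 months, 14 at 24 months and 13 at 28 months. The pairs are built from 8 genes, so a shift in 1 gene can enter 7 pairs, and the pairs are not separate results. How many pairs of other genes would pass was not measured, so these counts have no background. With each prep tested alone and adjusted in the same way, 6, 8 and 0 of the 28 pairs passed at 28 months in preps 1, 2 and 3, where 12, 10 and 5 had an unadjusted permutation p under 0.05. Without the 2 libraries highest in the members 12 pairs passed at 28 months, and without the 2 libraries least like the others 14 did. These comparisons again share the 3-month libraries.

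The Mobp to Cldn11 ratio is given in full as an example, chosen after its values were seen. On the log2 scale it ran from 2.34 through a median of 2.59 to 2.75 at 3 months, which is a 6.00-fold excess of Mobp counts at the median. At 9 months the lowest, median and highest were 2.50, 2.87 and 3.06, and at 15 months 2.78, 3.01 and 3.20. At 24 months they were 2.67, 3.01 and 3.26, and at 28 months 2.71, 2.95 and 3.20. All 16 libraries at 15 months lay above all 15 at 3 months, as did 14 of 16 at 9 months, 16 of 17 at 24 months and 17 of 18 at 28 months. The difference from 3 months was 0.26 ± 0.04 (SE) at 9 months, 0.41 ± 0.04 at 15 months, 0.43 ± 0.05 at 24 months and 0.36 ± 0.04 at 28 months. The adjusted permutation p was 7.47e-05 at each age. At 28 months the difference was 0.36 within prep 1 and 0.43 within prep 2, with adjusted permutation p-values of 0.0384 and 0.0436. Within prep 3 it was 0.29 with an adjusted permutation p of 0.0599, which did not pass the threshold. It was 0.34 without the 2 libraries highest in the members and 0.36 without the 2 libraries least like the others.

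The other pairs fell into a pattern by gene. Mbp and Mobp kept close to each other, with differences in their log2 ratio of -0.03, -0.04, -0.02 and -0.09 at 9, 15, 24 and 28 months and adjusted permutation p-values from 0.0929 to 0.797. Relative to the other members both were higher wherever a pair passed. At 28 months Mbp was relatively higher in 6 of its 7 pairs and Mobp in 6 of its 7 pairs. The pair of Mbp and Opalin was among these with an adjusted permutation p of 0.0491, which was 0.0655 without the 2 libraries highest in the members. The largest differences at 28 months were those of Mobp to Opalin, 0.46 ± 0.17 (SE, adjusted permutation p of 0.0216), and Mobp to Cnp, 0.45 ± 0.07 (1.12e-04). The Mobp to Opalin difference was 0.72 within prep 1, 0.61 within prep 2 and 0.04 within prep 3, with adjusted permutation p-values of 0.0410, 0.226 and 0.951. The Cnp to Cldn11 difference was -0.09 with an adjusted permutation p of 0.283, and -0.14 with one of 0.00603 without the 2 libraries least like the others. Cldn11 was relatively lower in 6 of its 7 pairs at 9 months, in 7 of 7 at 15 months, in 5 of 7 at 24 months and in 2 of 7 at 28 months. Opalin was relatively higher in 5 of its 7 pairs at 9 months and relatively lower in 2 of 7 at 28 months. Of the 15 pairs that held neither Mbp nor Mobp, 1 passed at 28 months. That pair was Mog and Cnp, whose log2 ratio was higher by 0.13 ± 0.05 (SE) than at 3 months, with an adjusted permutation p of 0.0146. Its p was 0.0198 without the 2 libraries highest in the members and 0.0193 without the 2 least like the others, and 0.162, 0.414 and 0.321 within preps 1, 2 and 3. Whether length, base composition or the transcript forms counted move these ratios was not tested.

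**Figure D4:**
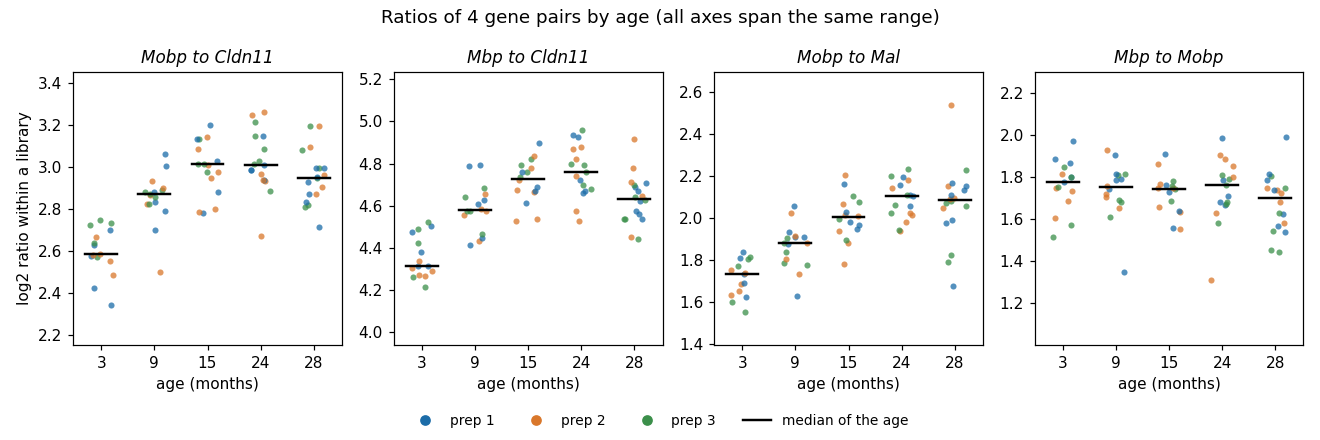
Log2 ratio of CPM of 2 genes within each brain library by age in months, for 4 pairs, with 1 point per library coloured by prep, a bar at the median of the age and axes of equal span. The first 3 ratios are lowest at 3 months, and the Mbp to Mobp ratio keeps its median between 1.70 and 1.78.

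Lists of other oligodendrocyte genes gave the setting at 28 against 3 months, where 16.3% of tested genes were called higher and 12% lower. Of 28 further myelin and mature oligodendrocyte genes, 7 were called higher and 1 lower, and their median log2 fold change was 0.05. Klk6, a secreted protease of oligodendrocytes, rose from 0.673 ± 0.675 to 1.95 ± 1.46 CPM (mean ± SD, n = 15 and 18), a log2 fold change of 1.53 with an adjusted p of 7.41e-05. Apod, a lipid-carrying lipocalin, rose from 112 ± 29.6 to 273 ± 150 CPM, a log2 fold change of 1.30 with an adjusted p of 1.14e-10. Hapln2, a link protein at nodes of Ranvier, had a log2 fold change of 0.89 and Tppp3, a tubulin-binding protein, of 0.64. Mpzl1 fell by 0.39 on the log2 scale.

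Of 10 precursor genes, 0 were called higher and 3 lower. Gpr17, a receptor of committed precursors, fell from 66.4 ± 6.72 to 21.5 ± 6.44 CPM, a log2 fold change of -1.62 with an adjusted p of 6.07e-23. Neu4, a sialidase, fell from 12.4 ± 1.40 to 9.48 ± 1.12 CPM, a log2 fold change of -0.39 with an adjusted p of 3.08e-08, and lost its call in prep 2 alone. The third call was Sox6, a transcription factor, with a log2 fold change of -0.21 and an adjusted p of 0.0126. The other 7 genes of the list were not called, among them Pdgfra and Cspg4, with log2 fold changes of -0.08 and -0.03. Of 9 tested genes of premyelinating oligodendrocytes, 5 were called lower, among them Bmp4 (-0.52) and Kank1 (-0.40), and 1 higher (Itpr2, 0.13). In preps 1, 2 and 3 alone 2, 0 and 0 of these genes were called lower, and Bmp4 and Kank1 lost their calls in preps 2 and 3. Of 12 oligodendrocyte transcription factors, 1 was called higher (Nkx6-2, 0.52) and 1 lower (Zfp488, -0.39), while Myrf had 0.12 and Sox10 -0.09 without a call. Exons of Nkx6-2, Gpr17 and Bmp4 share bases with an oppositely oriented gene, and reads from that gene could be among theirs.

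Of 16 genes of myelin lipid synthesis, 4 were called higher and 1 lower. Ugt8a, which makes the galactolipid of myelin, fell from 47.6 ± 18.4 to 33.4 ± 11.6 CPM, a log2 fold change of -0.50 with an adjusted p of 0.00601. It was not called in prep 1, 2 or 3 alone, nor were Itpr2, Nkx6-2, Nrcam and Nrg1. Fdft1, an enzyme of cholesterol synthesis, had a log2 fold change of 0.38, which was 0.15 without the 28-month replicate 15, the library least like the others. On the opposite strand Ctsb covers 18.3% of its exon bases. Of 15 genes of the paranode, axon contact and node, 0 were called higher and 3 lower, among them Nfasc (-0.28) and Nrcam (-0.20). Of 16 receptors and signals of myelination, 0 were called higher and 1 lower, which was Nrg1 (-0.36). In edgeR 0 of 6 gap junction and ion channel genes and 0 of 4 septins were called, and 0 of either list had an unadjusted p under 0.05. DESeq2 called 0 in either list, and limma voom called 1 gap junction or ion channel gene lower and 0 septins. Kcnj10, the most abundant of the former, had a log2 fold change of -0.13 and Sept8, the most abundant of the latter, of -0.03. Of 12 genes reported to rise in oligodendrocytes in disease, 8 were called higher and 0 lower. C4b, a complement component, rose from 41.7 ± 11.6 to 210.0 ± 42.9 CPM, a log2 fold change of 2.32 with an adjusted p of 5.65e-32. Counts of C4b may include reads of its near-identical neighbour C4a, and astrocytes and microglia also express many genes of this list. These list counts rested on the pooled preps for small changes. With prep 2 fitted alone, 3 genes of the disease-associated list were called higher and 1 of the further myelin genes, while Gpr17, Apod, Mpzl1 and C4b were called in each prep and in each of the 14 settings compared. With the 3-month and 28-month libraries fitted alone, 0 lipid synthesis genes were called higher, and Aspa, Fdft1 and Itpr2 lost their calls. Without the 2 libraries highest in the 8 genes, 10 further myelin genes were called higher and 1 lower. With limma voom, 5 precursor genes were called lower, 10 further myelin genes higher and 4 lower, 6 lipid synthesis genes higher, and 6 paranode, axon contact and node genes lower. Of the latter list 0, 0 and 1 were called lower in preps 1, 2 and 3 alone. With the clock output covariate, 5 precursor genes and 3 receptors and signals were called lower, and 5 paranode, axon contact and node genes lower and 1 higher. Leaving out each library in turn, the number of lipid synthesis genes called higher ran from 2 to 4 and was 2 without the 3-month replicate 13, 14 or 16. It was also 2 without a filter on low counts. The further myelin genes called higher numbered 7 to 11, with 11 without the 3-month replicate 9, and those called lower 1 to 2, with 2 without the 28-month replicate 8 or 15. Transcription factors called lower numbered 1 to 3, with 3 without the 28-month replicate 15. Premyelinating genes called higher numbered 0 to 2, with 2 without the 3-month replicate 9. Receptors and signals called lower numbered 2 without the 3-month replicate 4, 7 or 12 or the 28-month replicate 8 or 17, and 1 gene of the disease-associated list was called lower without the 3-month replicate 9 or 10. The other list counts moved by 1.5 times or less when 1 library was left out. Itpr2 also lost its call without the 3-month replicate 1, 5 or 7 or the 28-month replicate 15, and Aspa without the 3-month replicate 4, 7, 12, 13, 14 or 16 or the 28-month replicate 8 or 17.

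**Figure D5:**
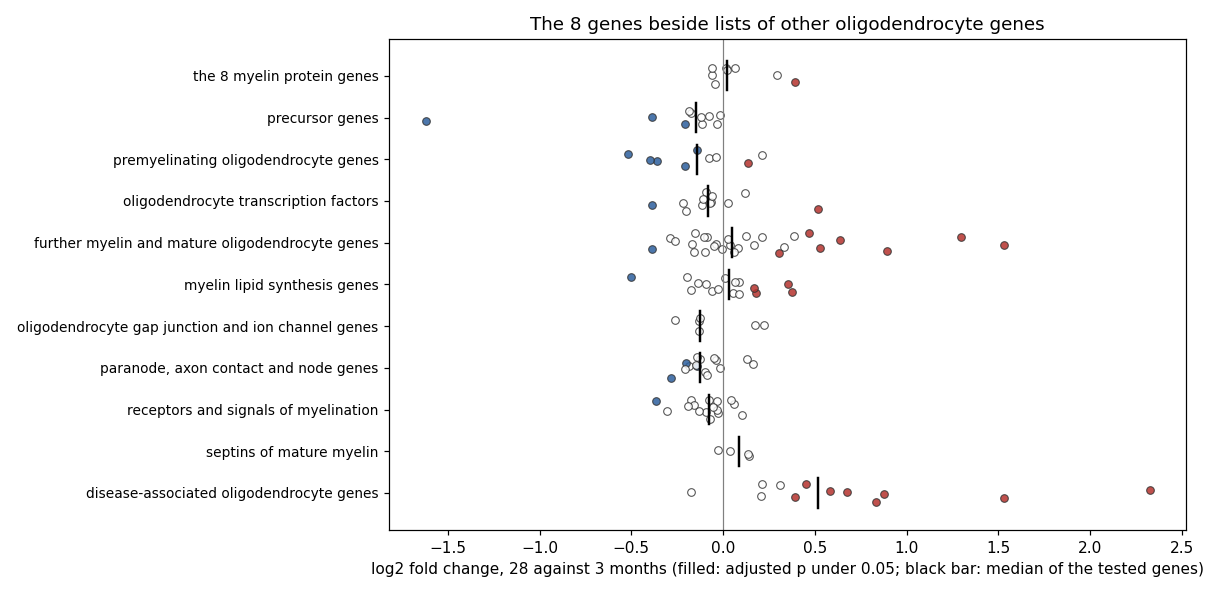
Log2 fold change at 28 against 3 months of each tested gene in the 8 myelin protein genes and in 10 lists of other oligodendrocyte genes, with filled points for an adjusted p under 0.05 and a black bar at the median of each list. The 8 genes lie between -0.06 and 0.39 around a median of 0.02, while the disease-associated list has a median of 0.51.

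In liver, which holds no oligodendrocytes, 4 of the 8 genes were counted above the filter in 83 libraries of the same study (5.82 M to 57.5 M read counts). Mog, Mobp, Cldn11 and Opalin had at most 3 counts in any liver library, and Opalin had 0 counts in all 83. These liver values were fitted by edgeR's quasi-likelihood test after the levels had been seen, and no alternative was run. At 28 against 3 months all 4 tested genes were called higher, where 61.9% of the 15579 tested liver genes were called. Mbp rose from 1.25 ± 0.535 to 4.56 ± 2.54 CPM (mean ± SD, n = 16 and 18), a log2 fold change of 1.87 ± 0.23 (SE) with an adjusted p of 1.14e-10. The change on the log2 scale was 1.40 ± 0.26 for Mag (adjusted p of 3.79e-06), 0.60 ± 0.15 for Mal (6.29e-04) and 0.45 ± 0.11 for Cnp (2.66e-04). Levels of Mag and Mal were low. The mean of Mag was 0.373 CPM at 3 months and 0.978 CPM at 28 months, and that of Mal 0.646 and 0.978 CPM. Cnp fell by 0.35 on the log2 scale from 24 to 28 months (adjusted p of 0.0169). Gene counts do not separate the transcripts of Mbp, some of which are used outside myelin. Whether liver and brain differ in these changes was not tested.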

How the data were processed

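Polyadenylated RNA of brain and liver was sequenced in paired reads, 1 mouse per library, per the labels' protocols. The authors deposited raw read counts per Ensembl gene. The submitters' processing notes name cutadapt 2.8, HISAT2 2.1.0, SAMtools 1.9, featureCounts of Subread 2.0.1 and the build GRCm38.p6 (mm10). The strand setting and annotation of the counting are not given in the sources used here. Counts of the 82 brain libraries (11.5 M to 73.4 M each, median 37.6 M) were filtered with filterByExpr, scaled by TMM and fitted with edgeR 4.0.16 in R 4.3.3 (quasi-likelihood test), with age and prep as terms and all 5 ages in 1 fit. The p-values were adjusted by Benjamini-Hochberg over all 18711 tested genes at a threshold of 0.05. For correlations and ratios, log2 CPM had a prior count of 2. DESeq2 1.42.0 and limma 3.58.1 were alternatives. The fit was tested on simulated data. No column was left out.

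The 8 genes and all gene lists were chosen with earlier results of these data known, so no list is independent evidence. Genes named from a list were the called genes with the largest changes in each direction, up to 2 each way, or the most abundant gene where none was called. The 10 other genes with the highest correlation to the 8 genes were also named. Hapln2, Tppp3, Sox6, Pdgfra, Cspg4, Myrf and Sox10 fall outside this rule and were chosen after their values were seen. Within a tissue each library came from a separate mouse, so p-values measure the spread between mice. Brain and liver libraries of the same age and replicate number came from the same mouse per the labels.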

Additional observations from a re-analysis of the deposited data

How the results depend on the processing

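The single call at 28 against 3 months depended on the libraries used. The number of the 8 genes called was 2 (Mbp and Mobp) with limma voom, in prep 1 alone, without the 2 libraries highest in the 8 genes and without the highest and lowest library of both ages, and 0 in prep 2 alone and in prep 3 alone. At 24 against 3 months it was 1 (Cldn11) with DESeq2 and without the 2 libraries least like the others, and at 28 against 24 months 1 (Cldn11) with limma voom. With all ages together it was 1 (Cldn11) without a filter on low counts, with the clock output score as a covariate and without the 2 libraries least like the others, and 0 in prep 1, 2 and 3 alone. Leaving out each library in turn gave 0 to 2 calls at 24 against 3 months, 0 to 2 at 28 against 3 months and 1 to 3 over all ages. In prep 1, 2 and 3 alone 6, 8 and 0 pairs of genes passed in place of 13. The causes were not tested, and a prep alone holds fewer samples.

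Small log2 fold changes at 28 against 3 months changed sign. In prep 1 alone Mag had 0.22 and Cnp 0.11, in prep 2 alone Mog had -0.20, Cldn11 -0.17 and Mal -0.22, and in prep 3 alone Cnp had 0.081, Opalin 0.40 and the Mbp to Opalin ratio -0.057. Without the 2 libraries highest in the 8 genes Mag, Cnp and Opalin had 0.031, 0.027 and 0.026, and without the highest and lowest library of both ages Mag had 0.0022 and Opalin 0.018. With the clock output covariate Cldn11 had -0.0043, Mal -0.0030 and Opalin 0.039. Without the 2 least alike libraries Mog had -0.0085, and with only the ages compared Opalin had 0.0071. Leaving out each library in turn, the values ran from -0.0055 to 0.22 for Mog, -0.12 to 0.095 for Mag, -0.13 to 0.079 for Cnp, -0.038 to 0.17 for Cldn11, -0.17 to 0.15 for Opalin and -0.042 to 0.15 for Mal.

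Replicate numbers gave little sign of pairing the samples. The median correlation of deviations was 0.0096 in 157 same-numbered pairs and 0.0030 in different-numbered pairs. Of the same-numbered pairs 41 were over 0.1, and 9 of 82 libraries correlated best with their own number, and neither count has a comparison. With the replicate block 1 gene was called at 28 against 3 months and 2 over all ages, and Opalin had 0.010. Each gene was counted in every brain library, and the part of depth in the levels was not tested. Without the shallowest library, the 28-month replicate 15, Mog had -0.0055 and Opalin -0.17.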
